A study of Mesocricetus auratus with 38 samples.

Results

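Livers of male Golden Syrian hamsters that ate a high-fat diet (HFD) were compared with livers of animals that ate chow (the control group). The comparison rests on 19 of the 38 RNA-seq libraries of the series, 9 from control animals and 10 from HFD animals, chosen by their treatment label alone, and is described across all expressed genes. Control animals ate a feed with 11% of its calories from fat. HFD animals ate a feed with 23% of its calories from fat and 1 g/kg of cholesterol. Each feed was given for 12 weeks to animals with no transgene named in the labels, bought at 10 weeks of age and labelled as 22 weeks old. The methods name a placebo in the last 4 weeks for the HFD animals and do not say whether control animals also received it. The composition of the feeds also lists lard in the HFD alone and less linoleic safflower oil there than in the control feed, so the amount of fat, its kind, the cholesterol and the placebo cannot be told apart. All animals were housed singly and fasted for 6 h in the daytime before the liver was taken. A further 9 libraries (Dose I) and 10 libraries (Dose II) come from animals that ate the HFD and received L-carnitine, N-acetylcysteine, nicotinamide riboside and betaine in the last 4 weeks. They were not part of the comparison tested. In the fit they shared its estimate of the spread, its filter on low counts, its scaling and the removal of a trend with gene length. Since the labels name no animal, a library stands for 1 animal here, and p-values measure the spread between libraries.

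The liver takes up dietary lipid and cholesterol from chylomicron remnants, packs its own lipid into very-low-density lipoprotein, and gets rid of cholesterol by making bile acids and by exporting sterol into bile. A transcription factor of the SREBP family raises the genes of sterol synthesis when sterol in the endoplasmic reticulum (ER) is low, and the oxysterol receptor LXR raises genes of sterol efflux when it is high. Hepatocytes also make most plasma proteins, turn amino nitrogen into urea, store glycogen and clear drugs, and these tasks are spread unequally between the periportal and the pericentral part of the lobule. Kupffer cells, the macrophages of the liver, line its sinusoids together with endothelial cells and stellate cells.

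Estimated counts and TPM (transcript abundances that divide counts by transcript length and by the total) were held for 14631 gene symbols. Total estimated counts were 4.08e+06 to 1.04e+07 in the control libraries and 5.20e+06 to 6.50e+06 in the HFD libraries. Hepatocyte markers identified the tissue as liver, with 23 of 23 present and Alb, which encodes albumin, as a leading transcript. Libraries are named by C (control) or H (HFD) and the number the labels give. Control library C105, which the study left out after its principal component analysis, stood apart: its correlation with other controls in log2 CPM was 0.892 to 0.924, against 0.972 to 0.984 among the other 8. Short transcripts were high and long transcripts low in it, with a Spearman correlation of -0.38 between its deviation from the other controls and relative gene length. This correlation was -0.12 to 0.25 in the other controls and -0.31 to -0.10 in the HFD libraries. Results are therefore given without library C105 (8 control and 10 HFD livers, in a fit of 37 libraries) and then with it (all 38 libraries). The last version, again without library C105, removed the trend with length from each library.

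Of 9099 genes tested with edgeR's quasi-likelihood test, 1647 (18.1%) rose and 1649 (18.1%) fell in HFD livers at a Benjamini-Hochberg adjusted p under 0.1. Most changes were small. The median log2 fold change was 0.43 among the genes that rose and -0.45 among those that fell, 1973 of the 3296 called genes changed by less than 0.5 on the log2 scale, and 206 changed over 2-fold, 97 of them upward. In 83 of the genes that rose (0.912% of tested genes) and 80 of those that fell (0.879%), no HFD liver overlapped any of the 8 control livers in its level. With library C105 among the controls, 14 and 12 such genes were left. Over all 38 libraries, 600 of 9045 genes (6.63%) rose and 809 (8.94%) fell, and 599 and 795 of these had also been called without library C105. With the length trend removed, 1418 genes (15.6%) rose and 1458 (16%) fell, and 1255 and 1302 of these had also been called with the trend in place. The shares named here are the background against which the count of each gene list below has to be read.

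The change followed gene length. With genes cut into 4 equal parts by length, in the shortest part 31.1% rose and 12.2% fell, and in the longest part 7.34% rose and 27.3% fell, with a Spearman correlation of -0.26 between log2 fold change and length across genes, which are not independent replicates. The correlation was -0.17 over 38 libraries. It was -0.01 once the trend was removed, which the removal itself brings about. A list of 27 tested long transcripts, written as a sign of RNA quality, held 16 that fell, and the other 11 did not pass. The summed level of the 27 was 1375 to 1668 CPM in the 8 controls (counts scaled to the library total times its TMM factor). It was 1160 to 1379 CPM on HFD and 847 CPM in library C105. With the length trend removed, 5 of them fell and 2 rose. The part of transcript length or RNA quality in the other results was not tested beyond giving the version with the trend removed.

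**Figure D1:**
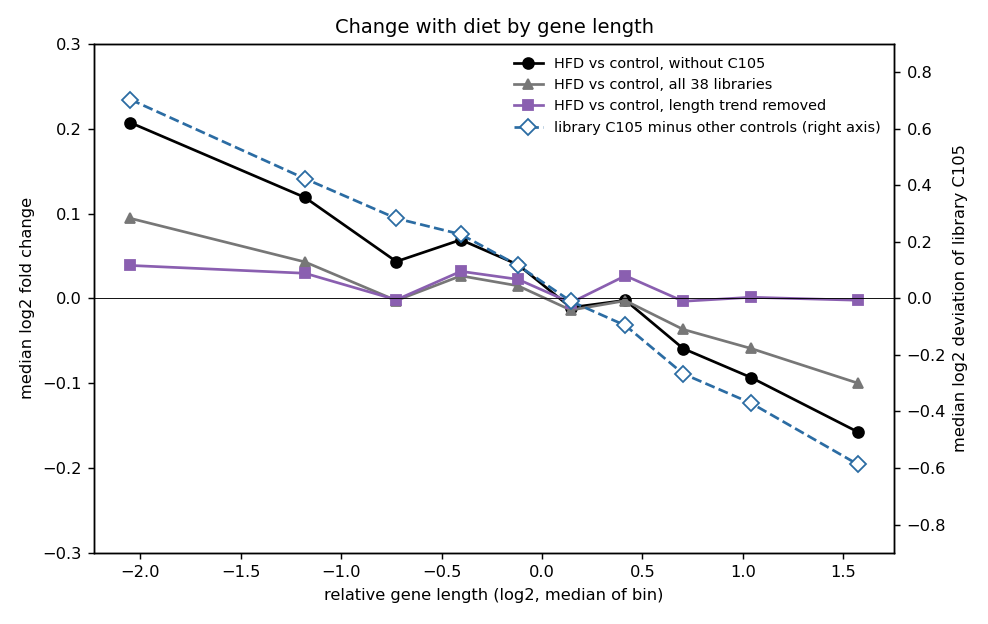
Median log2 fold change of HFD vs control in 10 bins of relative gene length, from short to long, without library C105 (filled circles), over all 38 libraries (triangles) and with the length trend removed (squares), beside the median deviation of control library C105 from the other 8 controls (open diamonds, right axis). The median without library C105 runs from 0.21 in the shortest bin to -0.16 in the longest, and the deviation of library C105 runs from 0.70 to -0.59.

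Of 29 tested genes of hexosamine and nucleotide sugar metabolism 7 rose and 2 fell, against 18.1% of all tested genes in each direction, and 5 rose and 2 fell with the length trend removed. Over 38 libraries 4 rose and 1 fell. Levels of single genes are given in CPM, in the order lowest, median and highest library of a group. Uap1l1, a relative of the enzyme that makes UDP-N-acetylglucosamine, stood at 4.95, 6.91 and 9.87 CPM in the 8 control livers, 13.4, 18.9 and 34.4 CPM in the 10 HFD livers and 6.68 CPM in library C105, which gave 1.52 on the log2 scale (SE 0.19, adjusted p = 8.52e-07). Every HFD liver lay above all 9 control livers. Amdhd2, which removes the acetyl group from N-acetylglucosamine 6-phosphate, went from 6.48, 8.41 and 11.4 to 13.2, 16.1 and 19.3 CPM (0.96, SE 0.11, adjusted p = 1.24e-07). Gnpda1, which turns glucosamine 6-phosphate back into fructose 6-phosphate, went from 12.5, 19.6 and 25.3 to 26.6, 33.04 and 45.3 CPM (0.83, SE 0.12, adjusted p = 5.19e-06). For Amdhd2 and Gnpda1 every HFD liver lay above the 8 controls, while library C105, at 13.9 and 30.2 CPM, lay inside the HFD range and below the HFD median. Both genes also passed over 38 libraries. Galk1, galactokinase, had a log2 fold change of 0.70, and its 0.39 over 38 libraries did not pass.

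Several of the other strongest genes belong to no metabolic list. Wscd2, a sulfotransferase-like protein of the Golgi, stood at 2.27, 11.5 and 37.4 CPM in control livers and 87.7, 121.7 and 257 CPM in HFD livers, with 4.28 CPM in library C105 (log2 fold change 2.96, SE 0.33). Tle3, a co-repressor of the Groucho family, went from 7.37, 12.2 and 16.1 to 21.4, 39.1 and 56.3 CPM. Lpo, lactoperoxidase, went from 2.03, 3.28 and 5.09 to 6.92, 13.7 and 19.3 CPM. Pdgfb, a growth factor for stellate cells and pericytes, stood at 0.691, 1.64 and 2.02 CPM and rose to 2.26, 4.11 and 5.24 CPM (1.46, SE 0.25, adjusted p = 5.59e-05). In these 4 genes no HFD liver overlapped any of the 9 controls. P2ry6, a receptor for UDP, had a log2 fold change of 1.41 (SE 0.18), and library C105 stood at 28.6 CPM, near the top of the HFD range of 11.6 to 29.8 CPM. Tnnt3, a troponin of fast skeletal muscle, had a fitted log2 fold change of 4.20 (SE 0.80), the largest among the genes named here, at levels of 0, 0.199 and 0.296 CPM in controls and 0.67, 2.58 and 13.6 CPM on HFD, and library C105, at 1.07 CPM, lay inside the HFD range. Ctsz, cathepsin Z, rose from 114.03, 138.5 and 157 to 208, 239 and 318 CPM, with 346 CPM in library C105, above every HFD liver.

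Among the genes that fell, Galnt16, which starts O-linked glycans, dropped from 11.4, 23.02 and 30.4 CPM in controls to 0.845, 2.47 and 6.41 CPM on HFD, with 8.82 CPM in library C105 (-2.80, SE 0.30, adjusted p = 1.19e-07). Cyp2g1, a cytochrome P450 best known from olfactory tissue, dropped from 6.45, 10.2 and 26.7 to 0.174, 1.22 and 3.22 CPM. No HFD liver overlapped any of the 9 controls in these 2 genes. Adgrg2, an adhesion G protein-coupled receptor, stood at 36.8, 56.4 and 74.98 CPM in control livers and 14.1, 20.2 and 33.5 CPM in HFD livers, and Cpd, a carboxypeptidase of the trans-Golgi, at 8.17, 11.1 and 15.6 CPM and 2.19, 4.77 and 7.17 CPM. Both groups were apart in the 18 libraries, while library C105, at 5.88 and 0.802 CPM, lay below every HFD liver. Ralgapa2, Cep85l, the deubiquitinase Usp9x and the gene 2610507B11Rik were also apart in the 18 libraries, with log2 fold changes of -1.30, -1.31, -0.69 and -0.46. Library C105 lay inside the HFD range in Ralgapa2 and below it in the others. All 4 also passed over 38 libraries and with the length trend removed.

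**Figure D2:**
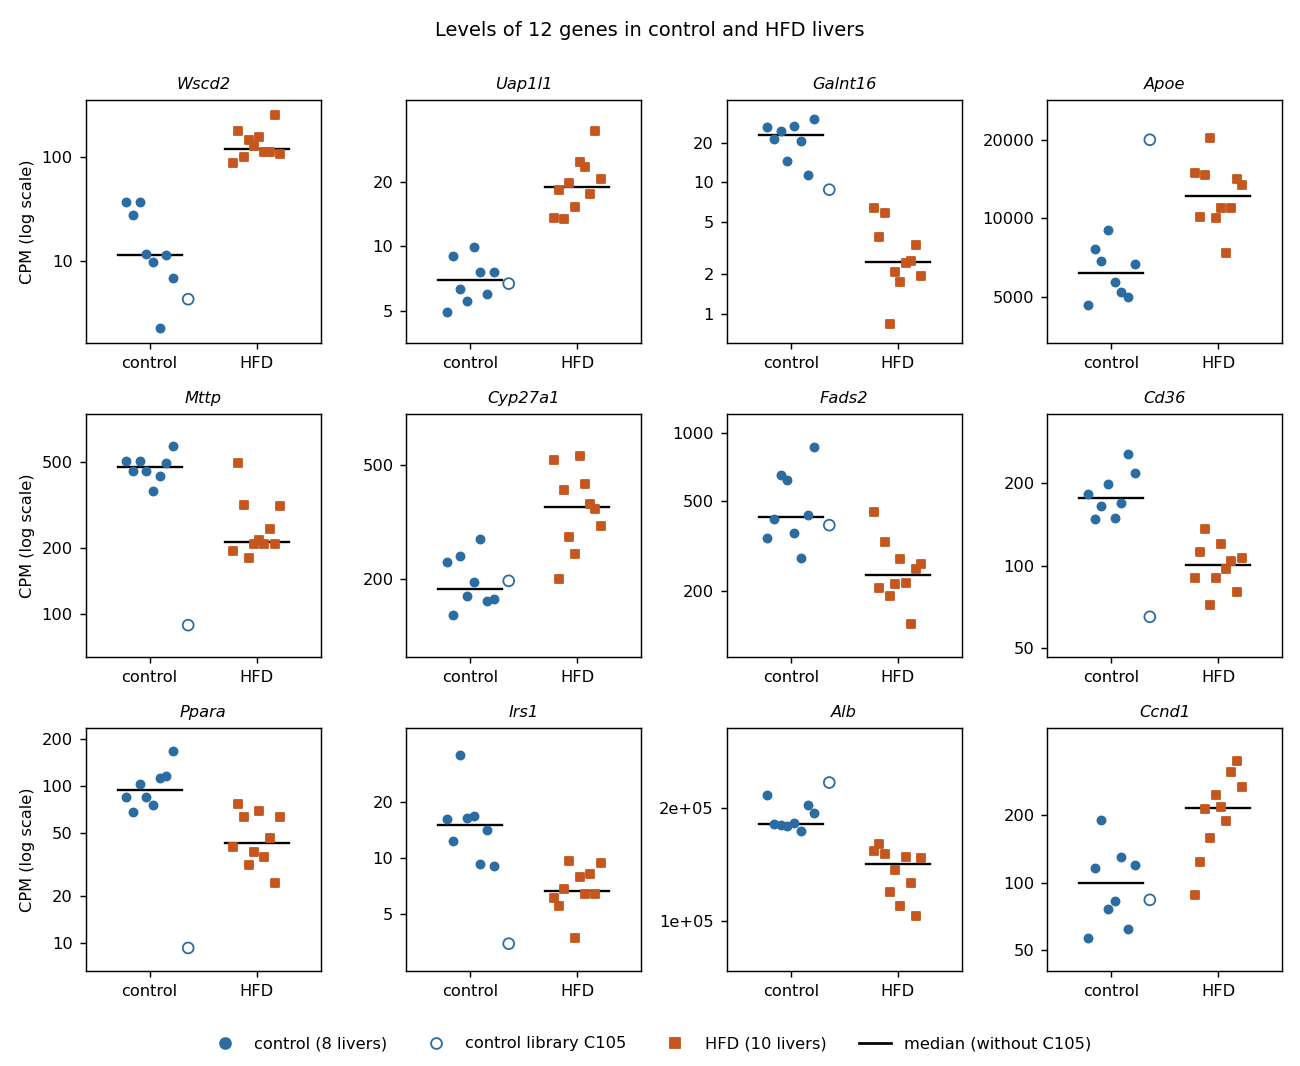
Level (CPM, log scale) of 12 genes in each liver: the 8 control livers (filled circles), control library C105 (open circle) and the 10 HFD livers (filled squares), with the median of the 8 controls and of the HFD livers as bars. Wscd2, Uap1l1, Galnt16 and Alb show no overlap between the 9 controls and the HFD livers. Library C105 lies on the HFD side for Apoe, Cd36, Mttp, Ppara and Irs1.

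Genes that respond to sterols moved on both sides of sterol balance. Sqle, squalene epoxidase, dropped from 8.82, 10.2 and 19.3 to 1.96, 2.93 and 5.17 CPM and did not overlap between the groups, and 16 of 22 tested genes of cholesterol synthesis fell with and without library C105 and with the length trend removed. Of 19 tested genes of sterol efflux and LXR targets, 7 rose and 1 fell, and 3 rose over 38 libraries. Apoe, the ligand that brings remnants to the liver, went from 4670.4, 6178 and 8986 CPM in controls to 7355, 12149.7 and 20285 CPM on HFD (1.0, SE 0.19, adjusted p = 2.06e-04). The groups overlapped, and library C105 stood at 19966 CPM, near the highest HFD liver, so that the log2 fold change over 38 libraries was 0.69 (adjusted p = 0.0425). Npc2, which carries cholesterol out of the lysosome, rose by 0.50 without library C105 and 0.40 with it. Abcg1, a transporter that loads cholesterol onto high-density lipoprotein, and Nr1h2, which encodes LXR-beta, had log2 fold changes of 0.69 and 0.47 and did not pass over 38 libraries. The transporters Abca1 (0.12, SE 0.11, adjusted p = 0.415), Abcg5 (0.26, SE 0.17, adjusted p = 0.279) and Abcg8 (-0.04, SE 0.13, adjusted p = 0.862), textbook LXR targets, did not pass, although Abca1 passed once the length trend was removed (0.33, adjusted p = 0.00895).

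Bile acid synthesis did not move as a block: of 12 tested genes 2 rose and 2 fell, and 1 and 1 over 38 libraries. Cyp27a1, which opens the alternative pathway and also makes 27-hydroxycholesterol, rose from 151, 186 and 276 to 200.4, 357 and 536 CPM (0.86, SE 0.17, adjusted p = 2.76e-04), by the same amount over 38 libraries (0.86, adjusted p = 6.18e-04). Akr1d1, the steroid 5-beta-reductase, fell by 0.57 on the log2 scale. Cyp7a1, the rate-limiting enzyme of the classical pathway, stood at 13.2, 16.2 and 24.5 CPM in controls and 4.02, 13.7 and 31.1 CPM on HFD and did not pass (-0.32, SE 0.41, adjusted p = 0.603), nor did Cyp8b1, the 12-alpha-hydroxylase (-0.03, SE 0.13, adjusted p = 0.897). Of 14 genes of bile acid and canalicular transport 4 fell and 2 rose, and 3 fell over 38 libraries. Slco1b2, an uptake carrier for organic anions, went from 589, 760.2 and 848 to 435, 500.003 and 683 CPM, Slc10a1, the sodium-dependent bile acid carrier, from 975, 1112 and 1256 to 747, 963 and 1013 CPM, and Nr1h4, which encodes the bile acid receptor FXR, from 156, 199 and 239 to 112.6, 154 and 178 CPM. All 3 fell over 38 libraries too, at log2 fold changes of -0.42, -0.24 and -0.42. Nr0b2, a repressor that FXR raises, had a log2 fold change of 0.85 that did not pass over 38 libraries (adjusted p = 0.149). Abcb11, the bile salt export pump, did not pass (-0.04, SE 0.19, adjusted p = 0.89).

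Apolipoprotein genes and the genes of lipoprotein assembly gave calls in both directions. Of 21 tested, 8 rose and 4 fell without library C105, and 5 and 5 with it. Apoa2, a protein of high-density lipoprotein, stood at 1615, 2426 and 3629 CPM in the 8 controls and 3921, 4822 and 7003 CPM on HFD, with no overlap, and at 6787 CPM in library C105. Apoa5, which promotes the clearance of triacylglycerol from plasma, went from 1217, 1534 and 1974 to 1843, 2274 and 2978 CPM (0.61, SE 0.12, adjusted p = 2.80e-04) and passed over 38 libraries at 0.51. Mttp, which loads lipid onto apolipoprotein B, dropped from 366, 473 and 594 to 180.1, 214 and 492.9 CPM (-0.88, SE 0.14, adjusted p = 3.98e-05), and 9 of 10 HFD livers lay below all 8 controls. Apob itself fell by 0.39 on the log2 scale. Library C105 stood at 88.5 CPM for Mttp, below every HFD liver, and at 2658 CPM for Apob, and with the length trend removed Apob did not pass (-0.14, adjusted p = 0.157). Per length, mean TPM went from 6408 ± 1833 to 13284 ± 2767 for Apoa2 and from 5797 ± 1452 to 11366 ± 3233 for Apoe (SD, n = 8 and n = 10). The difference between the 2 genes lay within their SD in each group.

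Among genes of fatty acid uptake and of the lipid droplet 4 of 21 rose and 5 fell, and over 38 libraries 1 and 4. Without control library C106 or C109 or HFD library H115 or H118 the count that fell was 3. Cd36, a fatty acid transporter at the cell surface, went from 148, 176 and 256 to 72.03, 100.9 and 136.6 CPM with no overlap among the 18 libraries and 65.2 CPM in library C105. Plin3, a coat protein of lipid droplets, rose from 11.6, 15.8 and 47.1 to 24.8, 62.9 and 102.7 CPM (1.51, SE 0.43, adjusted p = 0.00794), with overlapping groups, whereas Plin2, the main droplet coat protein of the liver, varied widely, at 305, 764 and 1239 CPM in controls and 346, 625.4 and 2538 CPM on HFD, and did not pass (0.18, SE 0.48, adjusted p = 0.81). Pnpla3, a droplet lipase that SREBP raises, stood at 62.7, 295 and 542 CPM and 46.2, 109.8 and 248 CPM (-1.20, SE 0.37, adjusted p = 0.0135). Mgll, monoacylglycerol lipase, fell by 0.53, a call not kept over 38 libraries (adjusted p = 0.185). Fabp1, the fatty acid binding protein of the hepatocyte cytosol, did not pass (-0.07, SE 0.14, adjusted p = 0.735).

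In polyunsaturated fatty acid synthesis 6 of 14 tested genes fell and 1 rose (over 38 libraries 4 and 1), and 12 of 14 had a negative log2 fold change. Fads2, which encodes the delta-6 desaturase, the rate-limiting step, went from 279, 425 and 865 to 143, 234 and 445 CPM (-0.97, SE 0.23, adjusted p = 0.00179). Fads1, the delta-5 desaturase, went from 218, 312 and 535 to 108.4, 189.7 and 334 CPM, and the elongase Elovl5 from 549.5, 605 and 977 to 344, 409 and 663 CPM. Hacd3, a dehydratase of the elongation cycle, fell by 0.39. These 4 also fell over 38 libraries, with log2 fold changes of -0.93, -0.75, -0.46 and -0.40, while the ranges of the groups overlapped in each. Scd1, which makes monounsaturated fatty acids, did not pass (-0.29, SE 0.23, adjusted p = 0.359). Of 17 genes of phospholipid synthesis 5 fell and 3 rose (over 38 libraries 3 and 2), and Chpt1, the last step to phosphatidylcholine, and Selenoi, the last step to phosphatidylethanolamine, fell by 0.45 and 0.41. Col4a3bp, which carries ceramide from the ER to the Golgi, fell by 1.03 among 20 genes of sphingolipid synthesis, of which 3 fell and 2 rose (over 38 libraries 2 and 1).

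Targets of PPAR-alpha, the receptor that turns on fatty acid oxidation in the fasted liver, numbered 6 that fell and 1 that rose of 19, and over 38 libraries 5 fell. Ppara itself went from 68.8, 93.6 and 167 CPM in controls to 24.3, 43.7 and 76.7 CPM on HFD (-1.05, SE 0.22, adjusted p = 6.99e-04), with library C105 lowest of all at 9.35 CPM. Cpt1a, the entry gate of fatty acids into mitochondria, did not overlap between the 8 controls and the HFD livers, and library C105 was lowest here too, at 31.8 CPM. Ehhadh, a bifunctional enzyme of peroxisomal beta-oxidation, went from 629.8, 832 and 1968 to 298, 565 and 749 CPM. Of 33 peroxisomal genes 9 fell and 2 rose, and over 38 libraries 8 fell and 1 rose. Abcd3, a peroxisomal transporter for bile acid precursors and long acyl chains, fell by 0.62, Hao1, glycolate oxidase, by 0.54 and the import receptor Pex19 by 0.33, while Phyh, which starts alpha-oxidation of phytanic acid, rose by 0.47. Of 5 ketone body genes 3 fell and 1 rose, and over 38 libraries 2 fell.

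Single genes of glycogen synthesis and of insulin signalling were among those that fell. Gys2, the liver glycogen synthase, went from 388, 452 and 513 to 289, 332 and 423 CPM (-0.39, SE 0.08, adjusted p = 2.63e-04). Gbe1, the branching enzyme, fell by 0.61, while Gaa, which digests glycogen in the lysosome, rose from 48.6, 58.9 and 81.7 to 77.5, 94.2 and 108.4 CPM (0.62, SE 0.11, adjusted p = 1.21e-04). All 3 passed over 38 libraries, and in each the groups overlapped. Of 18 glycogen genes 5 fell and 1 rose in the 37 and in the 38 libraries. Irs1, an adaptor of the insulin receptor, dropped from 9.03, 15.1 and 35.6 to 3.71, 6.65 and 9.64 CPM (-1.21, SE 0.24, adjusted p = 3.02e-04), and Pdpk1, the kinase that activates Akt, from 15.4, 17.1 and 20.97 to 6.43, 8.57 and 13.6 CPM (-0.91, SE 0.15, adjusted p = 3.08e-05). Pdpk1 was apart in the 18 libraries, with library C105 at 0.534 CPM. For Irs1 the groups overlapped, and library C105 stood at 3.47 CPM, below every HFD liver. Eif4ebp2, a repressor of translation that mTOR inactivates, fell by 0.54. Irs2, the other adaptor of the liver, did not pass (0.41, SE 0.27, adjusted p = 0.26). Mlxipl, which encodes the carbohydrate response factor ChREBP, rose from 147, 216 and 253 to 252, 295 and 453 CPM, and library C105 lay with the controls at 186 CPM. Of 40 genes of insulin, AMPK and mTOR signalling 12 fell and 5 rose, against 18.1% of all tested genes in each direction. Over 38 libraries 7 fell and 3 rose. With the length trend removed 7 fell and 6 rose, near the 16% and 15.6% of all tested genes in that version.

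Of 24 genes of glycolysis and gluconeogenesis 4 rose and 3 fell, against 18.1% of all tested genes in each direction. Over 38 libraries 1 rose and 1 fell. Pfkl, phosphofructokinase of the liver, rose by 0.50 and Gckr, a regulatory protein of glucose use, by 0.30, while the glucose transporter Slc2a2 fell by 0.27, of which Pfkl and Slc2a2 did not pass over 38 libraries. Slc2a2 also did not pass without control library C109 or HFD library H118 (adjusted p up to 0.114). Pck1 (0.15, SE 0.24, adjusted p = 0.686) and G6pc (-0.26, SE 0.22, adjusted p = 0.397), which control gluconeogenesis, did not pass, nor did Pygl, glycogen phosphorylase (-0.17, SE 0.17, adjusted p = 0.488). Around pyruvate dehydrogenase, 5 of 13 genes fell and 4 rose, and 2 fell over 38 libraries. Pdk1, a kinase that switches the complex off, went from 7.61, 10.2 and 12.2 to 2.66, 4.78 and 6.35 CPM with no overlap among the 18 libraries and 0.534 CPM in library C105. The catalytic subunit Pdha1 and the phosphatase Pdp2 fell by 0.47 and 0.67 (Pdp2 by 0.42 without control library C107), and Pdha1 did not pass over 38 libraries (adjusted p = 0.122). In the tricarboxylic acid cycle 6 of 19 genes fell and 3 rose (3 fell over 38 libraries), with Suclg2 and Aco1 at -0.42 and -0.45 and Sdhb at 0.22. Over 38 libraries the log2 fold change of Sdhb was 0.06 and did not pass. In the pentose phosphate pathway Pgls and Prps2 rose by 0.57 and 0.43, and the other 8 of 10 genes did not pass. Of these 2, Prps2 passed over 38 libraries.

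Genes that handle amino nitrogen fell more often than they rose. In the urea cycle and ammonia handling 7 of 15 fell and 1 rose, and over 38 libraries 6 fell and 1 rose. Oat, ornithine aminotransferase, a pericentral enzyme, went from 14.7, 31.9 and 53.9 to 7.76, 16.2 and 23.1 CPM (-1.06, SE 0.30, adjusted p = 0.00754). Arg1, arginase, which releases urea, stood at 873, 1062 and 1361 CPM in controls and 414, 787 and 1141 CPM on HFD (-0.51, SE 0.14, adjusted p = 0.00772). Gls2, the periportal glutaminase, fell by 0.60, Slc25a13, the aspartate-glutamate carrier of mitochondria, by 0.40 and Glud1, glutamate dehydrogenase, by 0.39. Car5a, the mitochondrial carbonic anhydrase that supplies bicarbonate, rose by 0.55. Cps1, the first and rate-limiting enzyme of the cycle, fell by 0.32 (SE 0.13, adjusted p = 0.057) but did not pass over 38 libraries (adjusted p = 0.154) or with the length trend removed (adjusted p = 0.311), nor without control library C104 or HFD library H113, H115 or H118 (adjusted p up to 0.134), while Glul, which makes glutamine in pericentral cells, did not pass (0.05, SE 0.28, adjusted p = 0.92).

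In methionine and one-carbon metabolism 8 of 27 genes fell and 2 rose, and 6 fell over 38 libraries. Cth, which makes cysteine from cystathionine, went from 330.3, 437 and 717 to 190.4, 278 and 367 CPM, with 525 CPM in library C105. Dmgdh, dimethylglycine dehydrogenase, fell by 0.39, Ahcyl1, a relative of adenosylhomocysteinase, by 0.32 and Mtr, methionine synthase, by 0.77, of which Mtr did not pass over 38 libraries. Among aminotransferases and enzymes of aromatic amino acid breakdown 8 of 25 fell and 2 rose (4 fell over 38 libraries, and 3 to 5 without control library C102, C104, C107 or C108 or HFD library H113, H115, H117 or H118), led by Abat, GABA transaminase, at -0.37, Agxt2 at -0.26 and the histidine-degrading Amdhd1 at -0.52. Of 22 amino acid transporters 6 fell and 1 rose, and 5 and 1 over 38 libraries. Slc1a2 and Slc1a1, glutamate carriers, fell by 1.47 and 0.53, and Slc38a7, a glutamine carrier of the lysosome, rose from 56.9, 67.5 and 96.1 to 88.9, 114.6 and 126.2 CPM (0.65, SE 0.12, adjusted p = 1.21e-04). Slc1a2 was scarce, at 1.37, 2.31 and 3.75 CPM in controls and 0, 0.925 and 1.58 CPM on HFD.

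Calls were found among the genes of each side of the lobule. Of 25 periportal genes 8 fell and 1 rose (over 38 libraries 4 and 1, with 3 to 5 that fell without control library C108 or HFD library H113, H115, H117 or H118), and of 22 pericentral and Wnt-dependent genes 5 fell and 4 rose (over 38 libraries 4 and 2 of 21). The periportal calls share Arg1, Gls2 and Alb with other lists, and the pericentral calls that rose include Cyp27a1 and Rnf43, a ubiquitin ligase that Wnt signalling turns on (0.67, SE 0.15). Ctsc, a lysosomal dipeptidase, was the periportal gene that rose (0.42, SE 0.08).

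**Figure D3:**
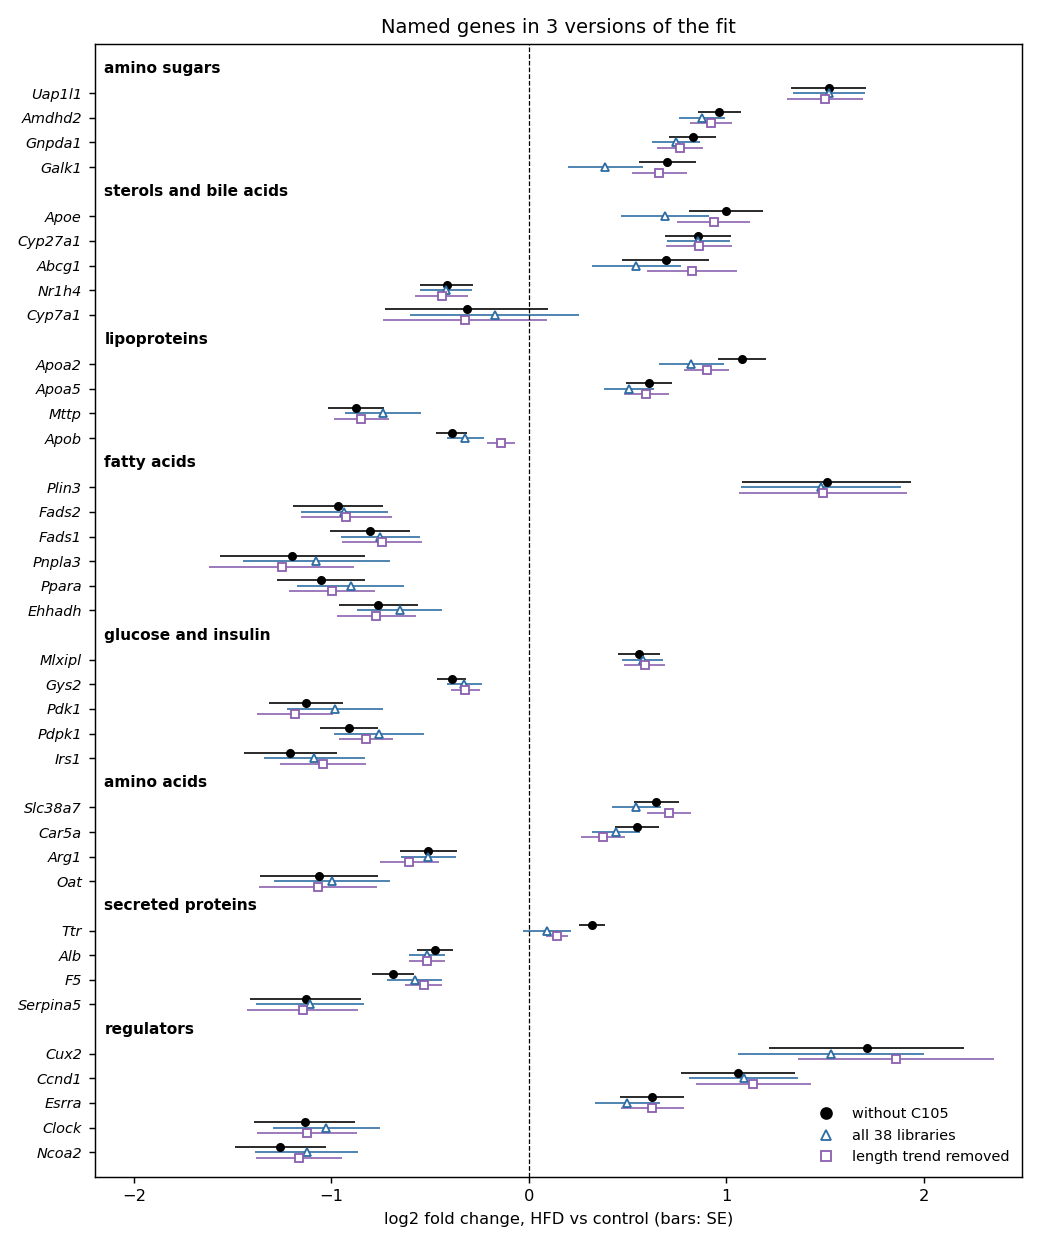
Log2 fold change (HFD vs control) with its SE for named genes in 8 groups, without library C105 (filled circles), over all 38 libraries (open triangles) and with the length trend removed (open squares); the dashed line marks no change. Fads2, Oat, Serpina5 and Cux2 keep their place in all 3 versions, while Ttr moves from 0.32 to 0.09 when library C105 is included.

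Of 16 cytochromes P450 of families 1 to 4, 9 fell and 3 rose (over 38 libraries 8 and 3). Members of this family can be near-identical, so single values carry the uncertainty of how reads were shared. Cyp1b1, which oxidises polycyclic hydrocarbons and estrogens, went from 6.24, 10.6 and 17.8 to 1.004, 3.18 and 9.52 CPM (-1.46, SE 0.33, adjusted p = 0.0014). Cyp2u1 and Cyp4b1, fatty acid hydroxylases, fell by 0.53 and 0.76, although without control library C109 the log2 fold change of Cyp4b1 was -0.48 (adjusted p = 0.0997). Cyp1a2, a main pericentral P450, did not pass (-0.14, SE 0.12, adjusted p = 0.392). Of 29 conjugating enzymes 6 fell and 3 rose (5 and 1 over 38 libraries). The glucuronosyltransferases Ugt2a3 and Ugt2b1, also members of a family of close copies, fell by 0.76 and 0.50, and Inmt, an N-methyltransferase, rose from 49.7, 237 and 405 to 237, 443 and 793 CPM (1.02, SE 0.28, adjusted p = 0.00671).

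Of 29 antioxidant genes 9 rose and 4 fell (over 38 libraries 4 and 4). Prdx2, a peroxiredoxin, went from 9.58, 27.6 and 31.4 to 46.5, 69.1 and 98.7 CPM with no overlap among the 18 libraries, and library C105 stood at 57.99 CPM. Hmox1, heme oxygenase 1, an Nrf2 target, rose from 12.3, 17.5 and 19.3 to 19.1, 21.6 and 31.9 CPM (0.52, SE 0.12, adjusted p = 0.00117), and library C105 lay with the controls at 16.6 CPM. Txn1, thioredoxin, rose by 0.39 and Txnrd1, its reductase, fell by 0.62, and of these Txn1 did not pass over 38 libraries. Nqo1, the textbook Nrf2 target, did not pass (-0.21, SE 0.12, adjusted p = 0.174). Hmox1 is also made by Kupffer cells and stands in their marker list.

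Iron and heme genes gave 13 that rose and 6 that fell of 33 without library C105, but 2 and 3 over 38 libraries. Aco1, the iron regulatory protein 1, fell from 624.5, 759 and 830.3 to 386, 520.3 and 794 CPM (-0.45, SE 0.10, adjusted p = 9.98e-04). Fech, which puts iron into heme, fell by 0.34 and passed over 38 libraries too. Alad, an early enzyme of heme synthesis, rose by 0.44 but did not pass over 38 libraries (adjusted p = 0.614), where library C105 had 483 CPM of Alad against an HFD range of 172 to 263 CPM. Tfrc, the transferrin receptor, did not pass (0.02, SE 0.14, adjusted p = 0.947). Among 41 zinc, copper and other ion transporters 9 rose and 11 fell, and 5 and 4 over 38 libraries. The zinc exporter Slc30a1 went from 9.21, 12.7 and 18.6 to 3.89, 6.08 and 10.7 CPM (-1.03, SE 0.17, adjusted p = 3.42e-05), the Golgi zinc carrier Slc39a9 fell by 0.99, and the copper importer Slc31a1 went from 131.1, 150.2 and 184 to 74.7, 108.2 and 130.7 CPM with no overlap among the 18 libraries. All 3 also fell over 38 libraries.

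Of the plasma proteins, albumin and several coagulation factors fell while transthyretin rose. Alb went from 173362, 181564 and 215951 CPM in controls to 102763, 141758 and 160536 CPM on HFD (-0.48, SE 0.09, adjusted p = 2.40e-04), and no HFD liver overlapped any of the 9 controls. Gc, which carries vitamin D, behaved alike, at 11396, 12204 and 13396 CPM and 8677, 10246 and 10969 CPM, and Itih2, a subunit of the inter-alpha-inhibitor, fell by 0.45. Of the 23 hepatocyte markers, which include Alb, 8 fell and 3 rose (over 38 libraries 7 fell), and their summed level was 261964 to 300371 CPM in the 8 controls, 176069 to 246191 CPM on HFD and 355966 CPM in library C105. Ttr, which carries thyroxine and retinol-binding protein, rose from 6586, 6945 and 7463 to 7931, 8646 and 9565 CPM and did not overlap with the 8 controls, but library C105 stood at 17698 CPM and the log2 fold change was 0.32 without it, 0.09 with it (adjusted p = 0.674) and 0.14 with the length trend removed (adjusted p = 0.0534). Rbp4, its partner, rose by 0.24 and did not pass over 38 libraries. Of 27 acute phase and carrier genes 6 fell and 5 rose, and 5 and 1 over 38 libraries, with 3 that rose without control library C101, C108 or C109 or HFD library H117.

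In coagulation and fibrinolysis 7 of 27 genes fell and 2 rose without library C105. With it 7 fell as well, though not all the same genes. F5, coagulation factor V, went from 761, 919.7 and 1113 to 416, 556 and 789 CPM (-0.69, SE 0.11, adjusted p = 1.79e-05), and Serpina5, the inhibitor of activated protein C, from 68.1, 126.6 and 184 to 20.2, 55.4 and 102.2 CPM (-1.13, SE 0.28, adjusted p = 0.00304). Below all 8 controls lay 9 of the 10 HFD livers for F5 and 7 for Serpina5. Ggcx, the carboxylase that makes vitamin K-dependent factors functional, fell by 0.64 and F13b by 0.33. Prothrombin (F2, -0.16, SE 0.08, adjusted p = 0.131) and the fibrinogen chain Fgb (-0.16, SE 0.18, adjusted p = 0.559) did not pass, although F2 passed over 38 libraries (-0.24, adjusted p = 0.0781) and with the length trend removed. Of 22 complement genes 9 rose and 3 fell (over 38 libraries 2 and 1). C1qa and C1qc, which macrophages make, rose by 0.70 and 0.83, and Mbl1, a mannose-binding lectin, by 0.54, of which Mbl1 also passed over 38 libraries. Masp1, the protease that such lectins activate, fell from 61.1, 69.96 and 75.4 to 31.6, 40.999 and 63.2 CPM (-0.67, SE 0.12, adjusted p = 7.99e-05). C3, the central component, did not pass (-0.17, SE 0.13, adjusted p = 0.331).

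Genes of the machinery that makes and ships these proteins were among those that fell. Of 38 genes of COPI and COPII coats and Golgi trafficking 15 fell and 3 rose, and over 38 libraries 10 fell and 1 rose. The COPII subunits Sec24a and Sec23a went from 53.1, 77.1 and 103.8 to 28.3, 39.3 and 54.1 CPM (-0.99, SE 0.18, adjusted p = 1.56e-04) and from 77.7, 84.9 and 115.5 to 33.5, 46.3 and 81.6 CPM (-0.75, SE 0.13, adjusted p = 1.04e-04). Sec16b, which marks ER exit sites, fell by 0.58. Tmed3, a cargo receptor of the early secretory pathway, rose from 6.45, 7.86 and 10.02 to 11.03, 13.8 and 18.2 CPM with no overlap among the 18 libraries. In the ER, 11 of 34 genes of chaperones and the unfolded protein response fell and 3 rose, and over 38 libraries 7 and 1, while without HFD library H113 the count that fell was 6. Edem1 and Edem3, which mark misfolded glycoproteins for removal, fell by 0.58 and 0.91, and Sel1l, the scaffold of ER-associated degradation, went from 34.7, 47.9 and 70.4 to 14.8, 22.1 and 49.8 CPM (-0.996, SE 0.21, adjusted p = 5.58e-04). Edem1 did not overlap among the 18 libraries. Hspa5, the main ER chaperone, did not pass (-0.10, SE 0.11, adjusted p = 0.528), and Xbp1, a factor of the unfolded protein response, fell by 0.28 without library C105 and did not pass with it, nor without control library C107 or HFD library H112 or H113 (adjusted p up to 0.129). Among 35 genes of N-glycosylation 14 fell and 6 rose, with Man1a2 at -0.83 and St3gal4 at -0.61 (-0.38 without control library C107) against Alg1 at 0.54 and Ost4 at 0.36. Over 38 libraries 5 of them fell and 2 rose, and with the length trend removed 9 fell and 4 rose.

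In 2 lists of mostly long genes most calls were falls, and their number shrank once the length trend was removed. Of 36 deubiquitinases 16 fell and 1 rose. With the trend removed 12 fell and 1 rose, and over 38 libraries 7 and 1. Usp9x went from 72.5, 95.2 and 108.3 to 43.2, 57.1 and 66.9 CPM, Usp31 fell by 1.14 and Otud6b by 0.64, while Usp20 rose by 0.59, and all 4 passed in the 3 versions. Of 36 histone and chromatin modifiers 15 fell and 1 rose, with the trend removed 9 fell and 3 rose, and over 38 libraries 5 fell. Setd2 and Ash1l, histone H3 methyltransferases, fell by 0.52 and 0.75 and the co-repressor Ncor1 by 0.52, while Hdac5, a histone deacetylase, rose by 0.40 without library C105 alone. In 2 lists of mostly short genes most calls were rises. Of 25 genes of mitochondrial protein import 11 rose and 2 fell, with the trend removed 5 rose and 3 fell, and over 38 libraries Timm44 alone passed, at 0.30. Romo1 and Timm13, small proteins of the inner membrane and the space outside it, rose by 0.81 and 0.67 without library C105 and had log2 fold changes of 0.39 and 0.33 with it. Of 13 genes encoded by mitochondrial DNA 10 rose, 7 over 38 libraries and 2 with the trend removed. COX2, a subunit of cytochrome c oxidase, went from 5715, 6447 and 7626 to 6934, 8127 and 9458 CPM (0.32, SE 0.06, adjusted p = 2.99e-04), and its log2 fold change with the trend removed was 0.15. These lists are examples, and others of like median length gave other counts. Of 41 collagens, laminins and matrix genes, also mostly long, 4 rose and 1 fell. Of 29 conjugating enzymes, also mostly short, 3 rose and 6 fell, and of 33 proteasome genes, mostly short too, 5 rose and 3 fell.

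Nuclear receptors and coactivators gave 8 that rose and 13 that fell of 39, and 3 and 6 over 38 libraries. The coactivators Ncoa2 and Ncoa1 fell, Ncoa2 from 13.2, 19.3 and 31.2 to 4.52, 8.24 and 18.6 CPM (-1.26, SE 0.23, adjusted p = 1.47e-04) and Ncoa1 by 0.57, the latter not over 38 libraries. Esrra, which encodes an estrogen-related receptor that drives mitochondrial genes, rose from 15.9, 20.5 and 25.95 to 26.5, 29.9 and 41.6 CPM with no overlap among the 18 libraries (0.62, SE 0.16, adjusted p = 0.0038). Among clock genes, Clock went from 3.72, 5.09 and 7.92 to 1.54, 1.88 and 5.10 CPM (-1.14, SE 0.25, adjusted p = 0.0012), while its partner Arntl (-0.35, SE 0.44, adjusted p = 0.58), the repressor Per2 (-0.08, SE 0.29, adjusted p = 0.865) and Nr1d1 (0.14, SE 0.27, adjusted p = 0.73) did not pass. In all 2 of 19 clock genes fell and 1 rose, and 1 and 1 over 38 libraries. In the growth hormone and IGF axis 4 of 17 genes fell and 3 rose, and 3 and 1 over 38 libraries. Cux2, a factor with a sex-biased, growth hormone-dependent level in rodent liver, rose from 3.29, 4.28 and 10.8 to 6.94, 14.1 and 43.7 CPM (1.71, SE 0.49, adjusted p = 0.00893), Onecut1 fell by 0.79, and Igf2r, the receptor that brings enzymes to the lysosome, by 0.56. Igf1 did not pass (0.15, SE 0.08, adjusted p = 0.203).

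**Figure D4:**
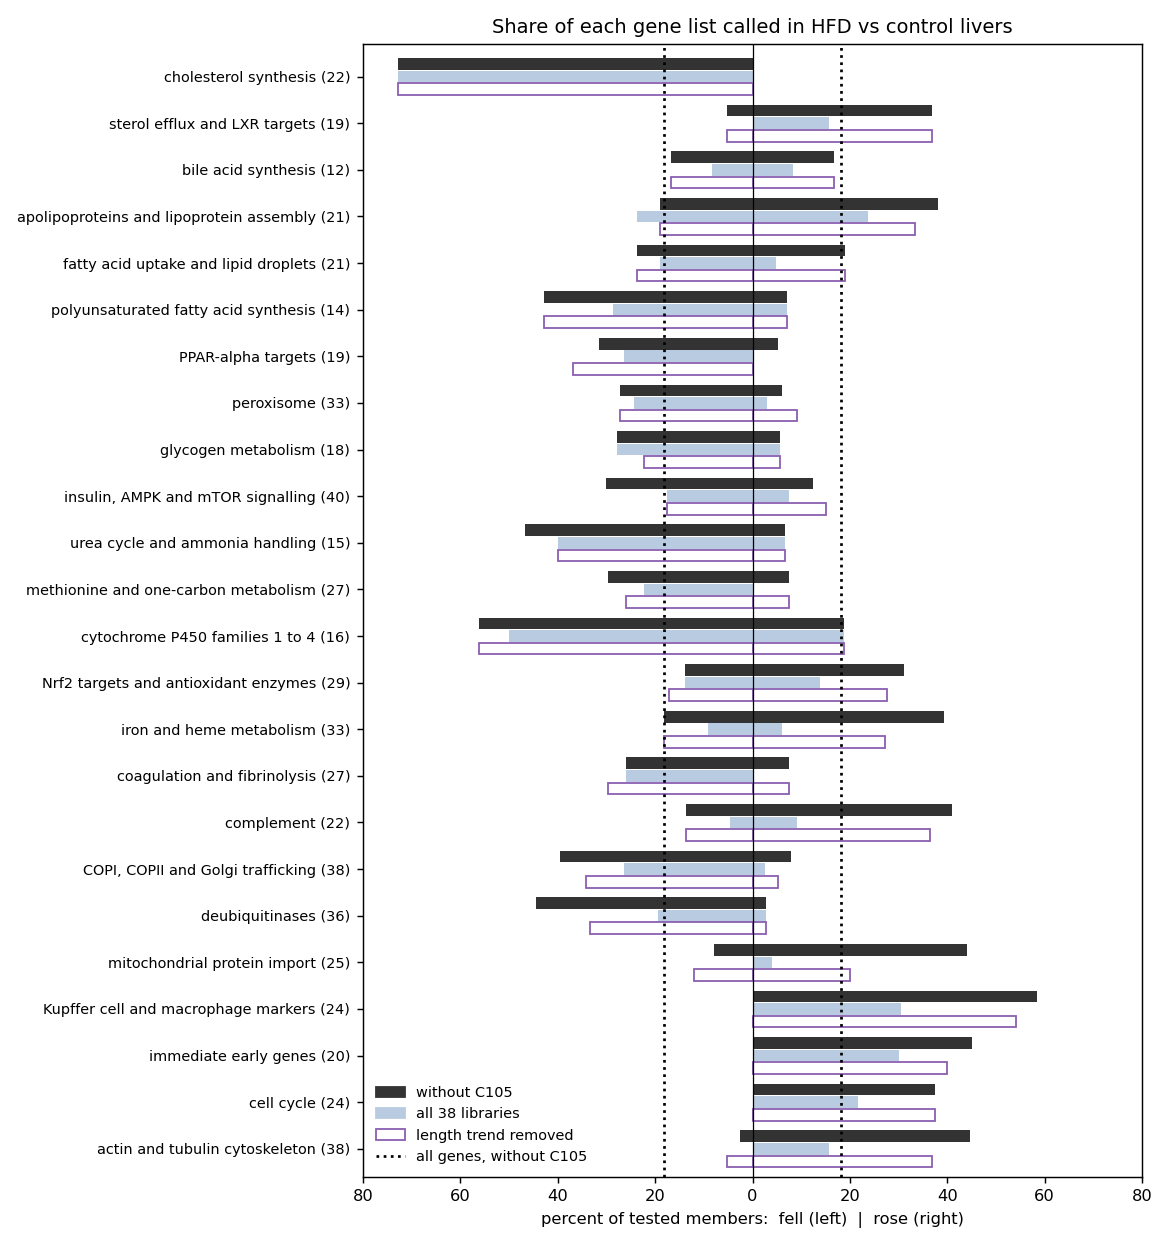
Share of tested genes in each of 24 lists, in percent, called higher (bars to the right) or lower (bars to the left) on HFD by edgeR, without library C105 (dark bars), over all 38 libraries (pale bars) and with the length trend removed (outlined bars); dotted lines mark the 18.1% of all tested genes that were called in each direction without library C105. Among these 24 lists, which leave out mitochondrially encoded genes, ketone body genes and long transcripts, the longest dark bars are cholesterol synthesis, with 16 of 22 that fell, and macrophage markers, with 14 of 24 that rose.

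Marker genes of the other cell types of the liver were counted in the same fit. In bulk tissue fewer or more cells of a type and less or more RNA per cell cannot be told apart. Of 24 tested Kupffer cell and macrophage markers 14 rose and the other 10 did not pass, and 7 of 23 rose over 38 libraries. Their summed level was 353 to 479 CPM in the 8 controls, 441 to 762 CPM on HFD and 744 CPM in library C105, within the HFD range. Marco, a scavenger receptor, went from 34.4, 43.5 and 54.2 to 63.1, 90.9 and 111.7 CPM and Cd5l, a secreted macrophage protein, from 22.8, 26.3 and 29.01 to 32.8, 45.3 and 62.4 CPM, without overlap in the 18 libraries. Fcer1g, the common chain of Fc receptors, rose by 0.59. Clec4f (0.25, SE 0.16, adjusted p = 0.241) and Adgre1 (0.10, SE 0.22, adjusted p = 0.76), which define rodent Kupffer cells and macrophages, did not pass. Genes of antigen processing and presentation rose in 6 of 18 cases and fell in 2 (3 and 1 over 38 libraries), with H2-Aa and Cd74, of MHC class II, at 0.63 and 0.54, Cd74 not over 38 libraries, and the immunoproteasome subunit Psmb8 at 0.74. The part of the macrophages in the rise of these genes, of C1qa and C1qc and of Hmox1 was not tested. Of 22 tested genes of chemokines, cytokines and inflammatory signalling 3 rose and 1 over 38 libraries, Ccl24 (0.79, SE 0.17, adjusted p = 7.40e-04), and Il1b did not pass (0.06, SE 0.37, adjusted p = 0.921). Tnf and Ccl2 were under the filter on low counts, at no more than 2.11 and 1.76 CPM in any of these livers.

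Sinusoidal endothelial markers gave 5 that rose and 1 that fell of 28, and over 38 libraries the fall of Gata4 was the only call (-0.71, adjusted p = 0.012). Without control library C108 or C109 or HFD library H113 the count that rose was 2 or 3. Dnase1l3, a secreted nuclease, rose by 0.44 without library C105. Their summed level was 446 to 637 CPM in controls and 412 to 775 CPM on HFD, and Stab2, a defining member, did not pass (-0.05, SE 0.12, adjusted p = 0.78). Of 24 stellate cell and fibroblast markers 3 fell and 1 rose, and 2 fell over 38 libraries, with a summed level of 545 to 797 CPM in controls and 489 to 893 CPM on HFD. Reln, reelin, went from 25.95, 42.05 and 51.4 to 12.3, 18.7 and 30.7 CPM (-0.99, SE 0.16, adjusted p = 2.57e-05) and Pdgfra fell by 0.58, while Lrat (0.02, SE 0.19, adjusted p = 0.955), Acta2 (-0.34, SE 0.32, adjusted p = 0.444) and Col1a1 (0.22, SE 0.29, adjusted p = 0.621) did not pass. Of 41 collagens, laminins and matrix genes 4 rose and 1 fell (2 rose over 38 libraries), with Mmp15, a membrane-bound protease, at 15.1, 27.3 and 32.7 CPM and 33.2, 38.97 and 55.1 CPM and no overlap among the 18 libraries. Of 11 tested cholangiocyte markers 2 rose and 1 fell (1 and 1 over 38 libraries), and the scarce Cldn3 and Krt19 rose by 1.59 and 0.98, Krt19 not over 38 libraries. Other cells left little signal, as 2 of 24 listed T and NK cell markers and 7 of 16 B and plasma cell markers passed the filter, and 21 and 8 of those listed were under 1 CPM on average. Among the B and plasma cell markers 1 fell, Xbp1, and among 7 tested neutrophil markers 1 rose, Il1r2 (1.01), neither over 38 libraries. None of the T and NK or of the 5 tested red blood cell and platelet markers passed, also at an unadjusted p under 0.05 in edgeR, and DESeq2 called 1 fall in the first list and none in the second. Of 6 tested markers of adipocytes, pancreas and muscle 2 rose, Tnnt3 and Cfd (0.76, not over 38 libraries), and 19 of the 25 listed were under 1 CPM on average.

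**Figure D5:**
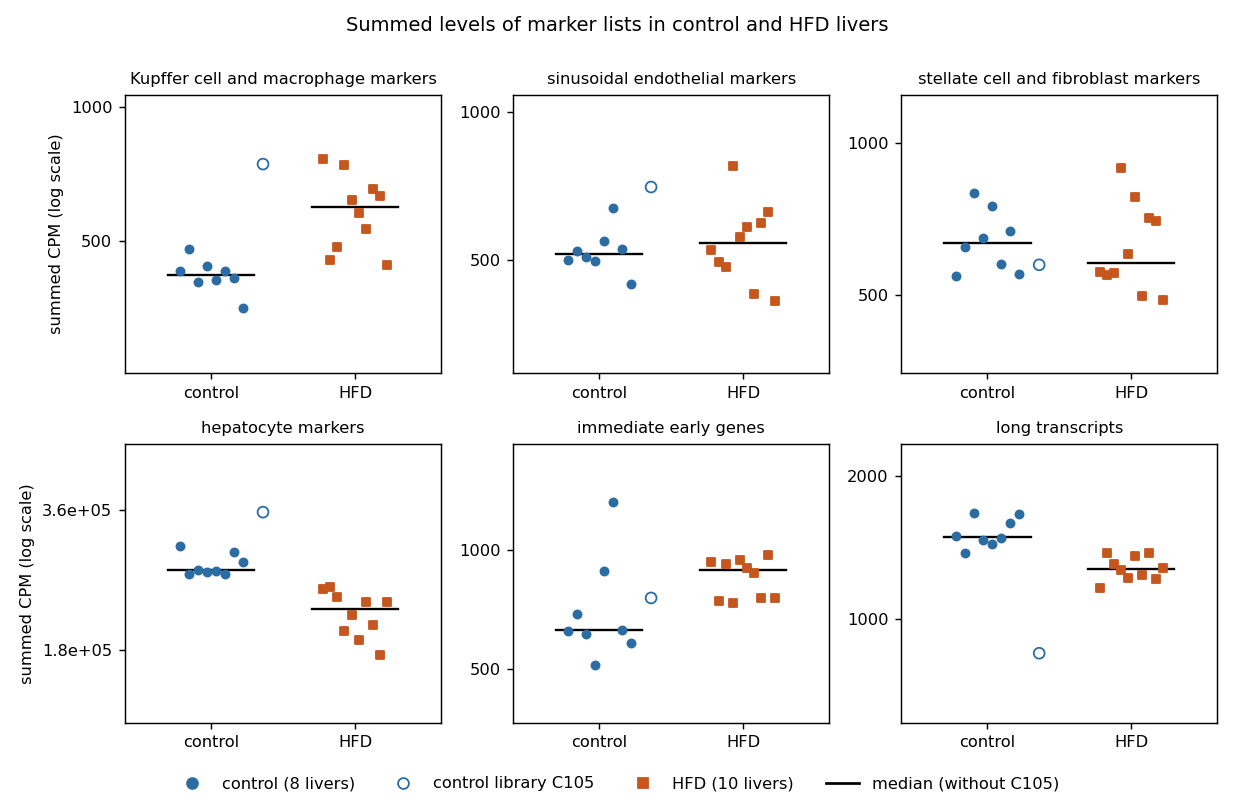
Summed level (CPM, log scale) of marker lists in each liver: the 8 control livers (filled circles), control library C105 (open circle) and the 10 HFD livers (filled squares). Macrophage markers run from 353 to 479 CPM in the 8 controls and from 441 to 762 CPM on HFD, and long transcripts from 1375 to 1668 CPM and from 1160 to 1379 CPM, with library C105 at 744 and 847 CPM.

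Genes that cells raise within minutes of a stimulus, of cell division and of the cytoskeleton rose more often than they fell. Of 20 immediate early genes 9 rose and the other 11 did not pass, and 6 rose over 38 libraries. Their summed level was 514 to 1316 CPM in the 8 controls, 735 to 971 CPM on HFD and 756 CPM in library C105. Klf6 went from 17.6, 24.01 and 32.3 to 21.4, 38.7 and 62.6 CPM (0.76, SE 0.17, adjusted p = 0.00108), Atf3, a stress factor, from 1.10, 2.51 and 5.80 to 3.55, 4.86 and 10.1 CPM, and Gadd45g from 1.71, 4.35 and 7.89 to 2.51, 9.90 and 30.4 CPM (1.42, SE 0.40, adjusted p = 0.00734). The groups overlapped in each, and library C105 lay with the controls for Klf6 and Gadd45g, at 14.97 and 2.67 CPM. This list also reports on how tissue was handled after death, which was not tested. Of 24 tested cell cycle genes 9 rose, 5 of 23 over 38 libraries. Ccnd1, cyclin D1, went from 56.4, 99.5 and 189.8 to 88.2, 215 and 351 CPM (1.06, SE 0.29, adjusted p = 0.00591) and by as much over 38 libraries (1.09), Mcm6, of the replication helicase, rose by 0.68 and Cdkn1b, which encodes the inhibitor p27, by 0.32. Mki67, which marks dividing cells, did not pass (0.22, SE 0.26, adjusted p = 0.543). Of 38 cytoskeletal genes 17 rose and 1 fell, and over 38 libraries 6 rose. Anxa2, an annexin that links membranes to actin, had the widest spread, at 10.1, 14.5 and 24.1 CPM in controls and 12.7, 30.7 and 110.8 CPM on HFD (1.75, SE 0.40, adjusted p = 0.00144). Anxa5 rose by 0.70 and Coro1b, a regulator of actin branching, from 53.7, 67.8 and 72.2 to 75.2, 89.5 and 119.1 CPM without overlap in the 18 libraries. Macrophages express many of these cytoskeletal genes, and the part of macrophages in their rise was not tested.

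The other lists held calls in each direction. Of 37 genes of purine and pyrimidine metabolism 7 rose and 4 fell (4 and 3 over 38 libraries), with Aprt, which salvages adenine, at 31.97, 36.9 and 55.7 CPM in controls and 54.4, 66.4 and 84.6 CPM on HFD (0.81, SE 0.11, adjusted p = 1.27e-06), and with Uox, urate oxidase, and Dpyd, which breaks down uracil, at -0.45 and -0.69. Of 26 genes of retinoid metabolism 5 rose and 5 fell (2 and 4 over 38 libraries), led by Rarres2, which encodes chemerin, at 362, 408 and 448 CPM and 503, 623 and 844 CPM. Autophagy gave 5 that rose and 4 that fell of 40 (3 and 2 over 38 libraries), led by Atg101 at 0.57, a change lost over 38 libraries (0.18, adjusted p = 0.557). The numbers that rose and fell were 5 and 3 of 33 for the proteasome (1 and 3 over 38 libraries), 5 and 6 of 32 for the aminoacyl-tRNA synthetases (1 and 3, and down to 3 each without single libraries), and 3 and 3 of 18 for the amino acid stress response (2 and 2). For the cytosolic heat shock proteins they were 1 and 3 of 26 (1 fell over 38 libraries), for the cysteine, taurine and sulfate genes 2 and 3 of 14 (1 fell) and for the interferon response 2 and 2 of 18 (1 rose). Atf4, which drives the amino acid stress response, did not pass (0.20, SE 0.09, adjusted p = 0.101).

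Levels in the animals that received the activators on the same HFD are given for context, with no test. Median CPM in the 8 control, 10 HFD, 9 Dose I and 10 Dose II livers was 6.91, 18.9, 19.9 and 22.5 for Uap1l1, 425, 234, 229 and 209 for Fads2 and 15.1, 6.65, 7.79 and 6.12 for Irs1, where the median of each dose lay nearer to the HFD than to the control median. It was 99.5, 215, 138.3 and 104.98 for Ccnd1, 43.5, 90.9, 58.5 and 55.7 for Marco and 26.3, 45.3, 31.3 and 31.997 for Cd5l, where the medians of the doses lay between those of the control and the HFD livers. It was 437, 278, 362 and 417 for Cth, 374, 287, 415 and 492 for Dmgdh and 1062, 787, 961 and 944 for Arg1, where the median of each dose lay above the HFD median. For Dmgdh it also lay above the control median. It was 295, 109.8, 78.9 and 29.2 for Pnpla3 and 402, 285, 210 and 197 for Abcd3, where the doses lay further from control than the HFD median. These genes are examples and follow no rule.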

How the data were processed

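RNA was sequenced from 38 hamster livers, 9 of them control and 10 HFD. The authors pseudo-aligned the reads to the MesAur1.0 transcripts with kallisto and deposited estimated counts and TPM per gene symbol. Rounded estimated counts were tested, and rows with no symbol, 21.2 to 24.2% of TPM, were left out. No column of per-sample values was left unused. Genes were filtered with filterByExpr, scaled with TMM and tested with the quasi-likelihood F test of edgeR 4.0.16 (R 4.3.3), with a coefficient per group over 37 libraries and Benjamini-Hochberg adjustment over 9099 genes. SE was the log2 fold change over the square root of F. CPM used TMM factors of all 38 libraries. Relative length was the ratio of estimated counts to TPM, and its trend was removed with a lowess offset (span 0.3). Alternatives were DESeq2 1.42.0, limma 3.58.1 on log2(TPM + 1), RLE factors, a robust fit, other filters, a threshold of 0.05, the 2 groups alone and each of 18 libraries left out. The test recovered 61% of 100 genes simulated with a log2 change of 0.5 and 92% of 100 with 1, among 9099 genes. Only these genes were changed, far fewer than the 3296 called in the data, and no length trend was simulated. The adjusted p depends on the share of changed genes, so these rates do not give the recovery in the real comparison.

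Genes in the text were the 12 with the least adjusted p per direction, the 8 with the largest change and no overlap, and up to 4 called members and the defining member of each of 69 lists, with a mean of at least 1 CPM for the first 2 kinds. Of the 298 genes this gave, 213 are named, and some of the others are not reported here. The lists and the comparison were chosen with earlier results of these data known. Intervals of depth cover counting error only. Coordinates and sequences of the build the authors used were not analysed here.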

Additional observations from a re-analysis of the deposited data

Results flagged for a closer look

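In 23 of 422 tests (211 tested genes of the text, in the 8 control and in the 10 HFD livers) the highest or lowest liver stood apart from its group by Dixon's test, and chance flags about 1 in 20 such groups. Levels are in CPM, each with that of the nearest liver of the group. Control library C107 was flagged 6 times, high for Pdp2 (169 against 89.2), St3gal4 (565 against 279) and Il1b (13.6 against 3.08), and low for Igf2r (60.7 against 84.8), Coro1b (53.7 against 65.2) and Lrat (2.52 against 3.85). Control library C109 was high for Sqle (19.3 against 12.4), Elovl5 (977 against 637) and Sec23a (115.5 against 91.3) and low for Abcg1 (1.66 against 4.03). Control library C103 was high for Irs1 (35.6 against 16.9) and low for Hmox1 (12.3 against 16.1). Control library C102 was high for Cd74 (203 against 144) and low for Otud6b (7.25 against 10.6), library C106 high for Dmgdh (459 against 384) and library C108 high for Nqo1 (198 against 167). HFD library H113 was low for Ehhadh (298 against 503) and Edem1 (165 against 210.2) and high for Romo1 (66.6 against 43.9) and Col1a1 (7.10 against 3.22). HFD library H112 was high for Cyp4b1 (169.8 against 87.2) and at 0 for Slc1a2 (against 0.676), and HFD library H118 was high for Plin2 (2538 against 951). With the library in question left out, the calls of these genes held, except that Il1b, which had not passed, had a log2 fold change of 0.77 and passed (adjusted p = 0.06).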

How the results depend on the processing

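The choice that moved the counts of 1647 genes that rose and 1649 that fell by over 1.5 times was library C105. All 38 libraries gave 600 and 809, the same with the length trend removed 630 and 827, and the 19 libraries of the 2 groups with C105, an alternative chosen after seeing the data, 410 and 483. Without C105, the 2 groups alone gave 1596 and 1661, DESeq2 1669 and 1648, RLE factors 1652 and 1636, the robust fit 1630 and 1640, no filter 1509 and 1606, at least 10 counts in every library 1457 and 1443, limma on log2(TPM + 1) 1420 and 1767, the length trend removed 1418 and 1458, and a threshold of 0.05 1240 and 1293. Leaving out each library in turn gave 1440 to 1742 that rose and 1362 to 1736 that fell. Of the 177 called genes in the text, 148 were called over 38 libraries, 175 with the length trend removed, 147 in all these versions, 177 by DESeq2 and 174 with each library left out. The exceptions in the last case were Slc2a2, Xbp1 and Cps1. Calls that held with the length trend removed but moved by over 1.5 times in log2 fold change were 2610507B11Rik (-0.30), Selenoi (-0.27), Sdhb (0.11), Txn1 (0.21), Ttr (0.14), Alad (0.27), Rbp4 (0.15), Ost4 (0.17), Setd2 (-0.35), COX2 (0.15) and Xbp1 (-0.46). No named gene changed sign with a call in any of these settings. List counts under 5 often moved by 1 or more genes with single libraries. The cause of library C105's distance from the other controls was not tested.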
